A study of Schizosaccharomyces pombe with 6 samples.

Results

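The mitochondrial genome of *Schizosaccharomyces pombe* (fission yeast) was examined in RNAseq libraries of nitrogen-starved cells. Its members were taken by identifier, as every row whose ID begins with SPMIT. These made up 37 of the 7001 rows of the deposited tables and divide by ID into 11 protein-coding rows, 25 tRNA rows and 1 non-coding RNA row. No row with an SPMIT rRNA ID was among them, so the mitochondrial rRNAs were not analysed here.

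The libraries come from 3 groups with 2 libraries each, all h- cells sampled after 4 hours without nitrogen in minimal medium (25 °C). The *igo1*Δ *nmt41:GST:pab1* + thiamine cells, called *pab1*-repressed below, carry *igo1* replaced by natMx6 and *pab1*, the B55 subunit gene of the PP2A phosphatase, fused to GST under the thiamine-repressible *nmt41* promoter. The *igo1*Δ cells carry *igo1*, the Endosulfine gene, replaced by kanMX6, and WT cells are the 972 strain. Both mutant groups thus lack *igo1* by label, and the labels mention thiamine during growth for all strains. They call the libraries of a group biological replicates but do not say that they came from separate cultures, so p-values measure the spread between these libraries. The question behind the design is how transcripts differ when Endosulfine, an inhibitor of PP2A/B55, is missing, and when the B55 subunit is then reduced.

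Reads on genes totalled between 14791399 and 18809513 per library. The deleted gene kept its reads, since reads on *igo1* numbered 2307 and 5035 in the *pab1*-repressed group and 1693 and 1478 in the *igo1*Δ group, against 1876 and 2098 in WT. Directions drawn from either mutant group thus rest on its label. *pab1* had 2296 and 1078 reads in the *pab1*-repressed libraries, against 2182 and 1819 in *igo1*Δ and 2853 and 3027 in WT, so the first repressed library overlapped with *igo1*Δ. *nmt1*, the gene whose promoter family drives *pab1* in the repressed strain, had 66 and 49 reads in the *pab1*-repressed libraries, against 146558 and 202812 in *igo1*Δ and 165916 and 197645 in WT. The levels in *igo1*Δ and WT go against thiamine in all 3 groups, as *nmt1* is repressed by it, so thiamine and the repression of *pab1* cannot be told apart in either comparison of the *pab1*-repressed libraries. The libraries of the *pab1*-repressed pair stand apart from each other. Among nuclear rows averaging at least 10 reads in the pair, 21.4% differed by over 2-fold between its libraries, as against 1.96% in the *igo1*Δ pair and 0.715% in the WT pair. Results that rest on this pair are therefore also given with each of its libraries left out.

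The mitochondrial genome of yeasts encodes a few hydrophobic subunits of the respiratory complexes and of ATP synthase, together with the rRNAs and tRNAs needed to translate them. In fission yeast it is copied by a dedicated, phage-like RNA polymerase into long transcripts that span several genes. tRNAs lie between the coding genes, and their excision by RNase P and tRNase Z releases the flanking mRNAs. All other mitochondrial proteins, including the polymerase, the mitochondrial ribosomal proteins and most respiratory subunits, are encoded in the nucleus and imported.

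The ASM294v3 reference lists 39 mitochondrial genes, namely 11 protein-coding genes, 25 tRNAs, 2 rRNAs (*rnl* and *rns*) and 1 RNase P RNA (*rnpB*). The protein-coding genes are *cox1*, *cox2* and *cox3* for cytochrome c oxidase, *cob* for cytochrome b of the bc1 complex, *atp6*, *atp8* and *atp9* for ATP synthase, *rps3* for a ribosomal protein, and 3 genes inside introns of *cox1* and *cob*. The sources used here do not pair these names with the SPMIT coding IDs, so coding rows are given by ID, without a function or a length. Levels are compared between libraries and not as amounts per length between rows. tRNA IDs carry the amino acid, which places 15 of the 25 on a single reference tRNA. The other 10 belong to the 5 amino acids with more than one mitochondrial tRNA (Arg, Ile, Leu, Met and Ser).

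Coding rows took a smaller share of the reads in *igo1*Δ than in either other group. The share was 2.33% and 2.89% of the reads on all rows in the *pab1*-repressed libraries, 1.34% and 0.945% in *igo1*Δ, and 2.02% and 2.24% in WT. The groups did not overlap, with the *pab1*-repressed libraries highest and the *igo1*Δ libraries lowest. The mean share was 2.61% ± 0.39 in the *pab1*-repressed libraries, 1.14% ± 0.28 in *igo1*Δ and 2.13% ± 0.16 in WT (SD, n = 2 each). The *igo1*Δ mean was 0.537 times that of WT, and the *pab1*-repressed mean was 2.28 times that of *igo1*Δ and 1.22 times that of WT. These ratios are of reads over the library total. By that measure 63.4% of all rows tested were lower in both *igo1*Δ libraries than in both WT libraries. Against *igo1*Δ, 54.6% of all rows tested were higher in both *pab1*-repressed libraries. The ratios thus include a difference that many rows shared. An exact two-sided permutation test gave p = 0.333 for each pair of groups, the smallest value that 2 libraries against 2 allow. Exact Clopper-Pearson 95% intervals, which cover counting error only, ran from 2.88% to 2.89% in the highest library and from 0.941% to 0.949% in the lowest, so depth did not limit these shares. In bulk RNA, fewer cells with a transcript and less transcript per cell cannot be told apart.

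**Figure D1:**
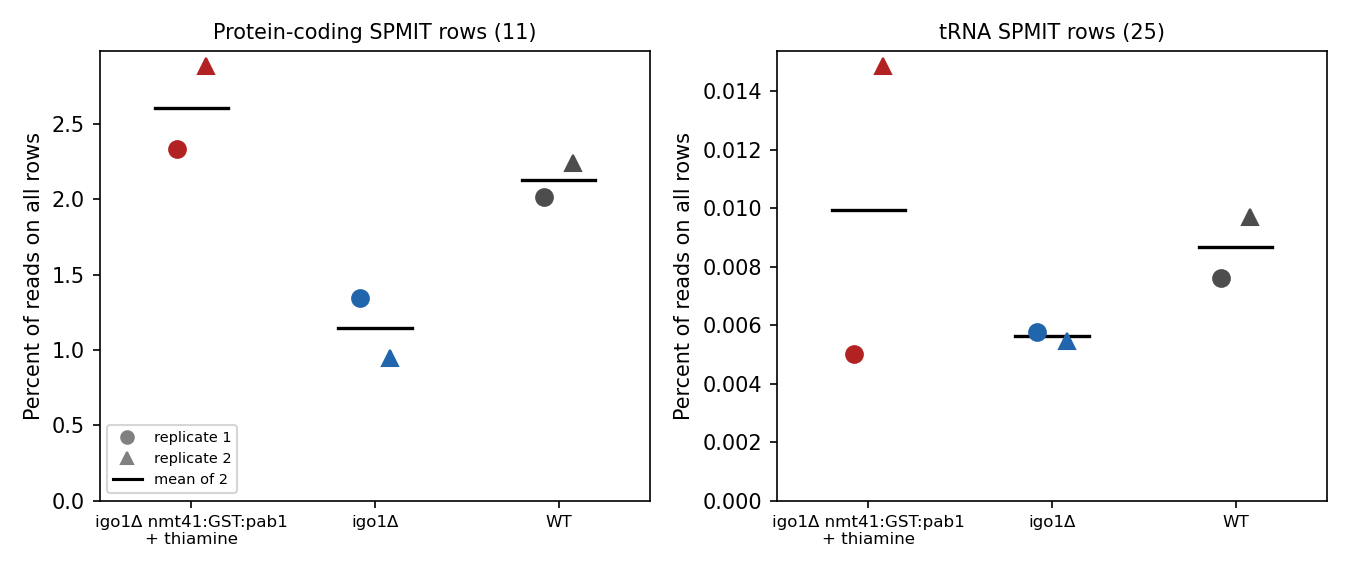
Share of reads on the 11 mitochondrial coding rows (left) and the 25 mitochondrial tRNA rows (right), in percent of the reads on all 7001 rows, per library, with group means as lines. The *igo1*Δ libraries lie at 1.34% and 0.945% for coding rows, below all others, while for tRNA rows the *pab1*-repressed libraries lie on either side of the rest.

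Of the 11 coding rows, 8 had reads in every library. SPMIT.02, SPMIT.03 and SPMIT.06 had 0 reads in all 6 libraries. Taking 3 reads as the limit, that allows up to 0.203 RPM of counted reads in the shallowest library. RPM is the depth-scaled unit in which the rows of every library sum to the same total. How reads on overlapping rows were counted is not given in the sources used here. A count of 0 therefore does not show that a transcript was absent. SPMIT.01 and SPMIT.11 were the most counted rows and together held 69.9% and 53.4% of the coding reads in the *pab1*-repressed libraries, 65.6% and 63.3% in *igo1*Δ, and 65.5% and 63.8% in WT. SPMIT.07, SPMIT.08 and SPMIT.09 were the least counted, at 1.41% and 6.97% of the coding reads in the *pab1*-repressed libraries, 1.17% and 1.50% in *igo1*Δ, and 1.38% and 1.97% in WT. The second *pab1*-repressed library thus differed from the other 5 in how its coding reads were spread over the rows.

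**Figure D2:**
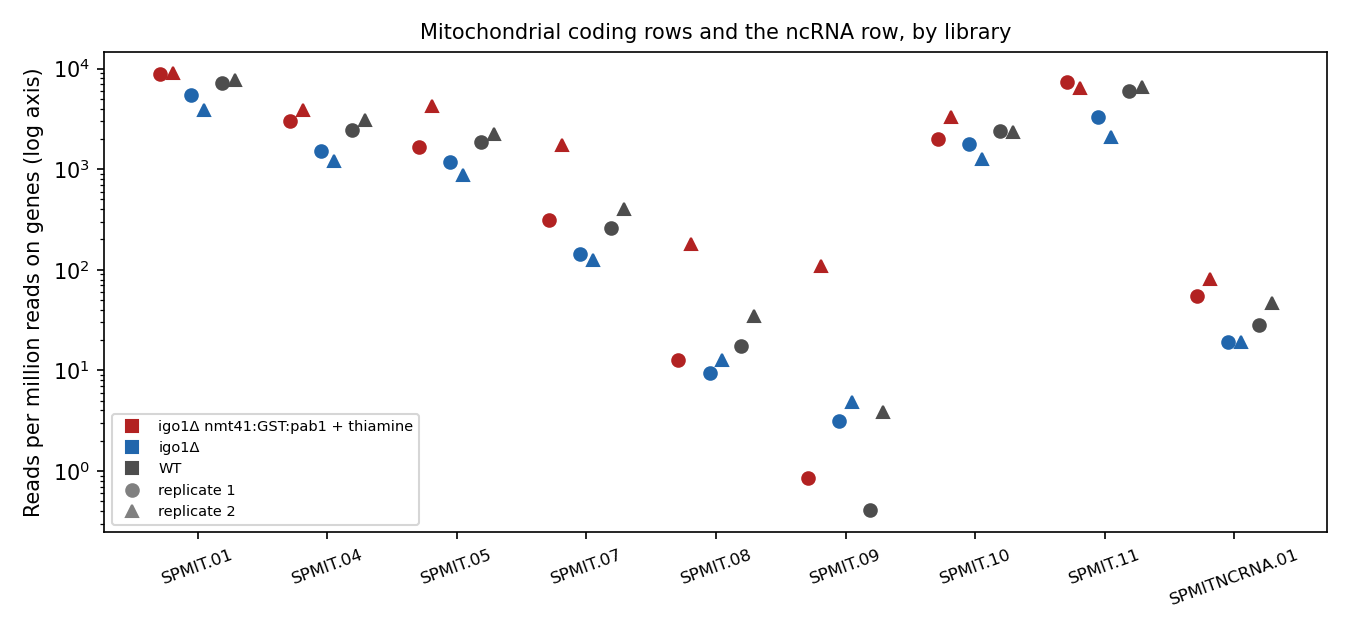
Level in RPM (log axis) of the 8 mitochondrial coding rows with reads and of SPMITNCRNA.01, for each of the 6 libraries. The *igo1*Δ libraries lie below the others for every row shown except SPMIT.09. The gap is narrow for SPMIT.08, at 12.6 RPM in the second *igo1*Δ library and 12.8 RPM in the first *pab1*-repressed library. The *pab1*-repressed libraries lie furthest apart for SPMIT.08 and SPMIT.09.

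The first comparison asked what differs in *igo1*Δ against WT. Most mitochondrial rows were lower in the libraries labelled *igo1*Δ. Of the 25 rows that averaged at least 10 reads over these 4 libraries, 10 fell and 0 rose at an adjusted p under 0.05 (edgeR's quasi-likelihood test on recovered reads, Benjamini-Hochberg adjustment over all 5931 rows tested). Over all rows 59.7% were called, with 29.6% higher and 30.1% lower. No row was called higher with edgeR, where 11 rows had an unadjusted p under 0.05 in either direction. DESeq2 called 1 row higher and 10 lower, of which 8 were among the 10 of edgeR. Over all rows DESeq2 called 27.5% higher and 23.9% lower. The 10 of edgeR comprised 5 of the 8 coding rows tested, the non-coding RNA row and 4 of the 16 tRNA rows tested. The median log2 fold change of the coding rows was -0.69, as against -0.03 over all rows. In both *igo1*Δ libraries 21 of the 25 rows had a lower RPM than in both WT libraries, beside 63.4% of all rows tested.

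SPMIT.11 had 59003 and 38737 reads in *igo1*Δ, against 88321 and 105064 in WT. Both *igo1*Δ libraries lay below both WT libraries, and the log2 fold change was -0.89 (SE 0.19, adjusted p = 0.0044, edgeR). In RPM its *igo1*Δ mean was 0.434 times the WT mean and after TMM scaling the fold was 0.540. The difference between these folds is that of the scaling, which takes the bulk of all rows as level.

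SPMIT.04 had 26825 and 22084 reads in *igo1*Δ, against 36264 and 49766 in WT. SPMIT.05 had 20918 and 16195 reads in *igo1*Δ, against 27401 and 35986 in WT. Neither row overlapped between the groups, and their log2 fold changes were -0.71 (SE 0.15, adjusted p = 0.0035, edgeR) and -0.67 (SE 0.14, adjusted p = 0.0040, edgeR). Among the less counted rows, SPMIT.07 had 2544 and 2308 reads in *igo1*Δ, against 3849 and 6476 in WT. It gave the lowest log2 fold change of the coding rows, -0.98 (SE 0.17, adjusted p = 0.0013, edgeR). SPMIT.08 had 168 and 233 reads in *igo1*Δ, against 257 and 552 in WT, with a log2 fold change of -0.89 (SE 0.30, adjusted p = 0.0322, edgeR).

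The other 3 coding rows did not pass the test. SPMIT.01, with 96784 and 72086 reads in *igo1*Δ, against 107466 and 125236 in WT, had a log2 fold change of -0.36 (SE 0.18, adjusted p = 0.107, edgeR). SPMIT.10 had 31169 and 23271 reads in *igo1*Δ, against 35130 and 37598 in WT, and its log2 fold change was -0.32 (SE 0.14, adjusted p = 0.0789, edgeR). For both, the *igo1*Δ libraries still lay below the WT libraries. SPMIT.09 had 56 and 89 reads in *igo1*Δ, against 6 and 62 in WT, so its groups overlapped and its WT libraries disagreed by 9.51-fold in RPM. It was the one coding row with a positive log2 fold change, 1.22 (SE 0.65, adjusted p = 0.135, edgeR), and with the replicate number as a block it was called higher (1.40, adjusted p = 0.0038).

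The coding rows were therefore not lower by an equal factor. Ratios between mitochondrial rows do not depend on how nuclear genes were scaled, and SPMIT.01 was taken as the denominator, as the most counted row, after its values had been seen. The ratio of SPMIT.11 to SPMIT.01 reads was 0.832 and 0.717 in the *pab1*-repressed libraries, 0.610 and 0.537 in *igo1*Δ, and 0.822 and 0.839 in WT. The *igo1*Δ libraries had the lowest ratios of the 6, and the *pab1*-repressed and WT libraries overlapped. For SPMIT.04 the ratio was 0.338 and 0.429 in the *pab1*-repressed libraries, 0.277 and 0.306 in *igo1*Δ, and 0.337 and 0.397 in WT. For SPMIT.10 it was 0.225 and 0.371 in the *pab1*-repressed libraries, 0.322 and 0.323 in *igo1*Δ, and 0.327 and 0.300 in WT. The groups did not separate for SPMIT.10, while for SPMIT.04 the *igo1*Δ libraries had the lowest ratios of the 6. For SPMIT.05 it was 0.188 and 0.476 in the *pab1*-repressed libraries, 0.216 and 0.225 in *igo1*Δ, and 0.255 and 0.287 in WT. Its lowest value was thus in a *pab1*-repressed library. For SPMIT.07 it was 0.0354 and 0.192 in the *pab1*-repressed libraries, 0.0263 and 0.0320 in *igo1*Δ, and 0.0358 and 0.0517 in WT. The *igo1*Δ libraries were again the lowest of the 6, close below the first *pab1*-repressed library.

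The non-coding RNA row fell with the coding rows. SPMITNCRNA.01 had 335 and 351 reads in *igo1*Δ, against 422 and 749 in WT, with a log2 fold change of -0.66 (SE 0.20, adjusted p = 0.0225, edgeR). The reference lists *rnpB*, the RNA part of mitochondrial RNase P, as its single mitochondrial gene that is neither coding, rRNA nor tRNA, but the sources do not pair it with this ID.

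Mitochondrial tRNA reads were few. The 25 rows together had 942 and 2326 reads in the *pab1*-repressed libraries, 1021 and 1010 in *igo1*Δ, and 1125 and 1562 in WT. That is 2.15 and 5.15 tRNA reads per 1000 coding reads in the *pab1*-repressed libraries, 4.30 and 5.77 in *igo1*Δ, and 3.77 and 4.33 in WT. A mean of at least 10 reads over the 6 libraries was reached by 17 tRNA rows, and the other 8 had means down to 0.333. Whether the libraries retained mature tRNAs or longer precursors cannot be told from counts per row.

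Among the tRNA rows that passed the filter on reads, the one for histidine had the fold change furthest from 0 between *igo1*Δ and WT. SPMITTRNAHIS.01 had 8 and 9 reads in *igo1*Δ, against 40 and 58 in WT, and the log2 fold change was -2.41 (SE 0.36, adjusted p = 0.00059, edgeR). The proline row, SPMITTRNAPRO.01, had 7 and 4 reads in *igo1*Δ, against 17 and 31 in WT, with a log2 fold change of -1.997 (SE 0.51, adjusted p = 0.0092, edgeR). In the reference, tRNA-His and tRNA-Pro are neighbours, after *atp6* and before tRNA-Gln. The glutamine row, SPMITTRNAGLN.01, had 166 and 160 reads in *igo1*Δ, against 161 and 242 in WT, with a log2 fold change of -0.20 (adjusted p = 0.364, edgeR).

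The glutamate row also fell. SPMITTRNAGLU.01, which the reference places between *rnpB* and *cox2*, had 14 and 11 reads in *igo1*Δ, against 25 and 48 in WT, with a log2 fold change of -1.43 (SE 0.41, adjusted p = 0.0152, edgeR). SPMITTRNAMET.01 had 20 and 22 reads in *igo1*Δ, against 36 and 42 in WT. Its log2 fold change was -0.79 (SE 0.30, adjusted p = 0.0473, edgeR), just inside the threshold. The other 12 tRNA rows tested were not called and had log2 fold changes between -1.03 for SPMITTRNAARG.01 and 0.86 for SPMITTRNAARG.02. Among these 12, SPMITTRNAILE.01 had 32 and 25 reads in *igo1*Δ, against 35 and 53 in WT, and SPMITTRNASER.01 had 49 and 32 in *igo1*Δ, against 44 and 77 in WT, with log2 fold changes of -0.52 and -0.47. SPMITTRNAALA.01 had 16 and 36 reads in *igo1*Δ, against 17 and 16 in WT, with a log2 fold change of 0.76 and overlapping groups. SPMITTRNALEU.02 had 166 and 167 reads in *igo1*Δ, against 184 and 301 in WT, and SPMITTRNAASP.01 had 10 and 12 in *igo1*Δ, against 15 and 26 in WT, with log2 fold changes of -0.43 and -0.79. SPMITTRNAARG.02 had 64 and 109 reads in *igo1*Δ, against 38 and 65 in WT, and missed the threshold at an adjusted p of 0.0535 (edgeR).

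**Figure D3:**
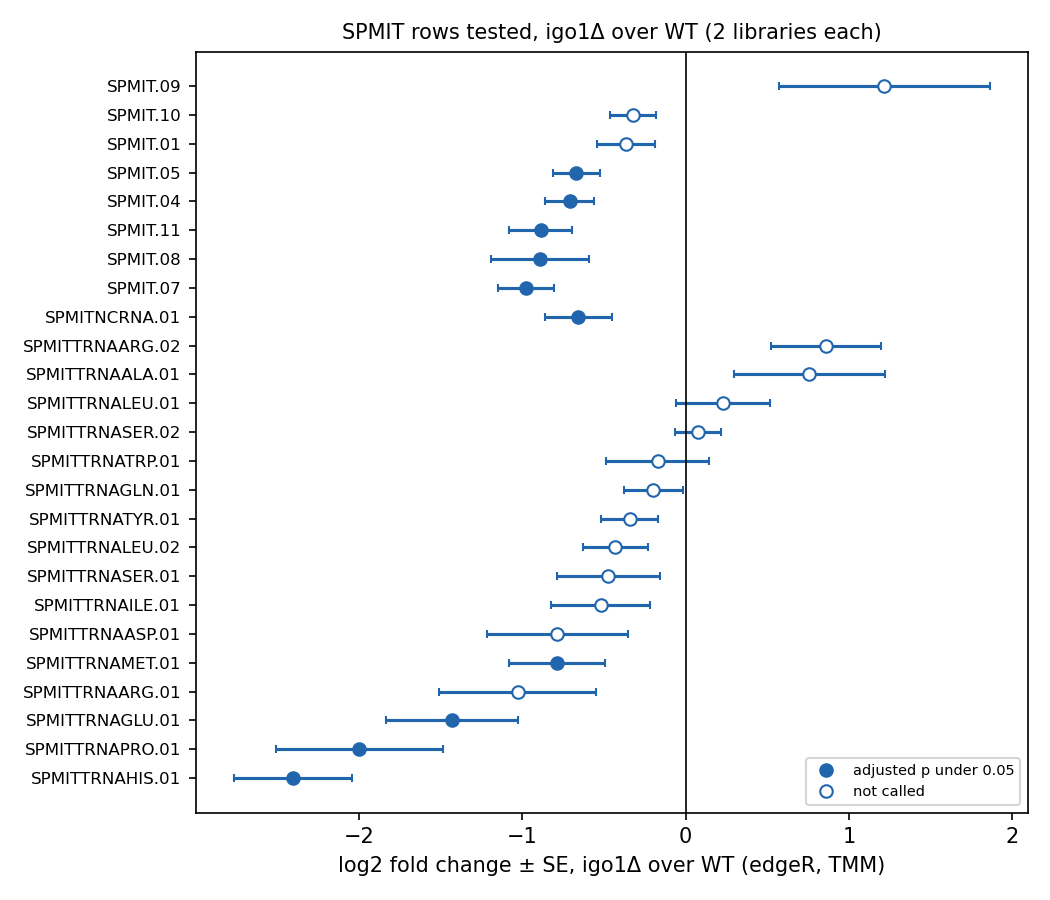
Log2 fold change of *igo1*Δ over WT with its standard error (edgeR, TMM scaling) for the 25 mitochondrial rows tested, by kind of row, with filled points for rows called at an adjusted p under 0.05. The 10 called rows all lie below 0, from -0.66 for SPMITNCRNA.01 to -2.41 for SPMITTRNAHIS.01.

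Rows under the filter showed low counts throughout. SPMITTRNAILE.02 had 1 and 0 reads in *igo1*Δ, against 16 and 13 in WT, and SPMITTRNAPHE.01 had 2 and 1 reads in *igo1*Δ, against 8 and 9 in WT. SPMITTRNACYS.01 and SPMITTRNAVAL.01 had 0 reads in both *igo1*Δ libraries, against 4 and 5 and 5 and 4 reads in WT. In the reference, tRNA-Cys and tRNA-Val are neighbours, after *atp8*. With no filter the 4 rows were called lower, beside 27.0% of all rows. Their adjusted p-values were 0.0026, 0.0350, 0.0332 and 0.0342 for the Ile, Phe, Cys and Val rows (edgeR), and no fold is given at such counts. They were named after their values had been seen, and the other rows under the filter (those of Asn, Gly, Lys, Thr and SPMITTRNAMET.02) had at most 11 reads in any *igo1*Δ or WT library.

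The calls in *igo1*Δ against WT depended on single libraries. Without the second WT library 3 rows fell (SPMIT.07, SPMIT.11 and SPMITTRNAHIS.01) and 2 rose (SPMIT.09 and SPMITTRNAARG.02), beside 22.9% lower and 24.2% higher over all rows. Without the first *igo1*Δ library 11 fell and 2 rose, beside 32.6% and 33.4%. In one edgeR fit over all 6 libraries, whose spread includes the discordant *pab1*-repressed pair, 0 rows were called and 3 had an unadjusted p under 0.05, and calls over all rows were also fewer, at 5.90% lower and 8.34% higher.

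The second comparison set the *pab1*-repressed libraries against *igo1*Δ within the table that holds both. Coding rows lay higher in the *pab1*-repressed libraries, but their spread was wide. Of the 26 rows tested, 1 rose and 0 fell (limma on log2(normalized count + 1), adjusted p under 0.05 over 6046 rows), while over all rows 9.03% were called, 2.91% higher and 6.12% lower. The row that rose was SPMITNCRNA.01. With DESeq2 5 rows were called higher, beside 9.28% of all rows, and with edgeR 1, beside 2.97%. The median log2 fold change of the coding rows was 0.89, as against 0.00 over all rows. In both *pab1*-repressed libraries 7 of the 8 coding rows had a higher RPM than in both *igo1*Δ libraries, SPMIT.09 being the exception, beside 54.6% of all rows tested.

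SPMITNCRNA.01 had 1031 and 1257 reads in the *pab1*-repressed libraries, against 335 and 351 in *igo1*Δ. Its log2 fold change was 1.34 (SE 0.26, adjusted p = 0.0484, limma), and over the 10 alternatives the adjusted p ran from 0.0015 to 0.0513. The groups did not overlap. The call of SPMITNCRNA.01 was lost without either *igo1*Δ library, where calls over all rows also became fewer. Without the first *pab1*-repressed library its log2 fold change was 1.59, against 1.08 without the second.

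SPMIT.11 had 139364 and 100561 reads in the *pab1*-repressed libraries, against 59003 and 38737 in *igo1*Δ. Its log2 fold change was 0.92 (SE 0.37, adjusted p = 0.168, limma). SPMIT.04 had 56653 and 60186 reads in the *pab1*-repressed libraries, against 26825 and 22084 in *igo1*Δ, with a log2 fold change of 0.87 (SE 0.29, adjusted p = 0.123, limma). Neither overlapped between the groups, and both were called by DESeq2 and by edgeR over all 6 libraries.

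SPMIT.01 had 167440 and 140302 reads in the *pab1*-repressed libraries, against 96784 and 72086 in *igo1*Δ, with a log2 fold change of 0.48 (SE 0.38, limma). SPMIT.10 had 37663 and 52004 reads in the *pab1*-repressed libraries, against 31169 and 23271 in *igo1*Δ, with a log2 fold change of 0.32 (SE 0.36, limma). These were the 2 lowest values of the coding rows, as they were the 2 closest to 0 in *igo1*Δ against WT. The comparisons share the *igo1*Δ libraries, so the 2 orders are not independent.

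The third comparison, of the *pab1*-repressed libraries with WT, called 0 of 27 mitochondrial rows in either direction with limma, edgeR or DESeq2. Limma called 0.0331% of all 6035 rows and edgeR 0.0331% of its rows, while DESeq2 called 3.21% higher and 2.53% lower. With calls this few over all rows, 0 of 27 does not set the mitochondrial rows apart. With limma 2 of the 27 rows had an unadjusted p under 0.05. The median log2 fold change of the coding rows was 0.26, as against -0.01 over all rows. It was 0.68 without the first *pab1*-repressed library and -0.22 without the second. SPMIT.11 had 139364 and 100561 reads in the *pab1*-repressed libraries, against 88321 and 105064 in WT, with a log2 fold change of 0.05 (SE 0.24, limma), and SPMIT.01 one of 0.15 (SE 0.23, limma). These intervals leave room for changes in either direction, so likeness to WT was not shown.

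What marked the *pab1*-repressed pair was how far its libraries differed on some mitochondrial rows and not on others. SPMIT.09 had 16 reads in the first *pab1*-repressed library and 1709 in the second, which is 128-fold in RPM. SPMIT.08 had 240 and 2802 reads, SPMIT.07 had 5932 and 26929, and SPMIT.05 had 31547 and 66804, which is 14.0-fold, 5.46-fold and 2.55-fold in RPM. SPMIT.01, SPMIT.04 and SPMIT.11 differed by 1.01-fold, 1.28-fold and 0.868-fold. The *igo1*Δ libraries differed by 0.627-fold to 1.52-fold on the same coding rows, and the WT libraries by 0.985-fold to 1.98-fold apart from SPMIT.09.

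tRNA rows split in the same way. SPMITTRNAMET.01 had 22 reads in the first *pab1*-repressed library and 280 in the second, SPMITTRNASER.02 had 128 and 788, and SPMITTRNAHIS.01 had 20 and 107. In RPM that is 15.3-fold, 7.40-fold and 6.44-fold. SPMITTRNAARG.01, SPMITTRNATRP.01, SPMITTRNAMET.02, SPMITTRNAPRO.01 and SPMITTRNAGLU.01 were 12.2-fold, 6.998-fold, 5.84-fold, 4.51-fold and 4.21-fold higher in the second library. Other tRNA rows went the other way or hardly moved. SPMITTRNAGLN.01 had 187 and 100 reads, SPMITTRNATYR.01 had 157 and 103, and SPMITTRNALEU.01 had 32 and 16, which is 0.643-fold, 0.789-fold and 0.601-fold.

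Of the 18 tRNA rows with a mean of at least 10 reads in the pair, 11 were over 2-fold higher in the second library and 0 over 2-fold lower, as against 691 higher and 606 lower of 6073 nuclear rows. Neighbouring tRNAs were not always alike, since tRNA-His and tRNA-Pro were higher in the second library and tRNA-Gln, next to them in the reference, was not. Nuclear rRNA rows took 0.0304% and 0.189% of the reads in the *pab1*-repressed libraries, 0.00264% and 0.0172% in *igo1*Δ, and 0.00119% and 0.0115% in WT. They were thus higher in the second library of every pair, and their part in the mitochondrial differences was not tested.

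**Figure D4:**
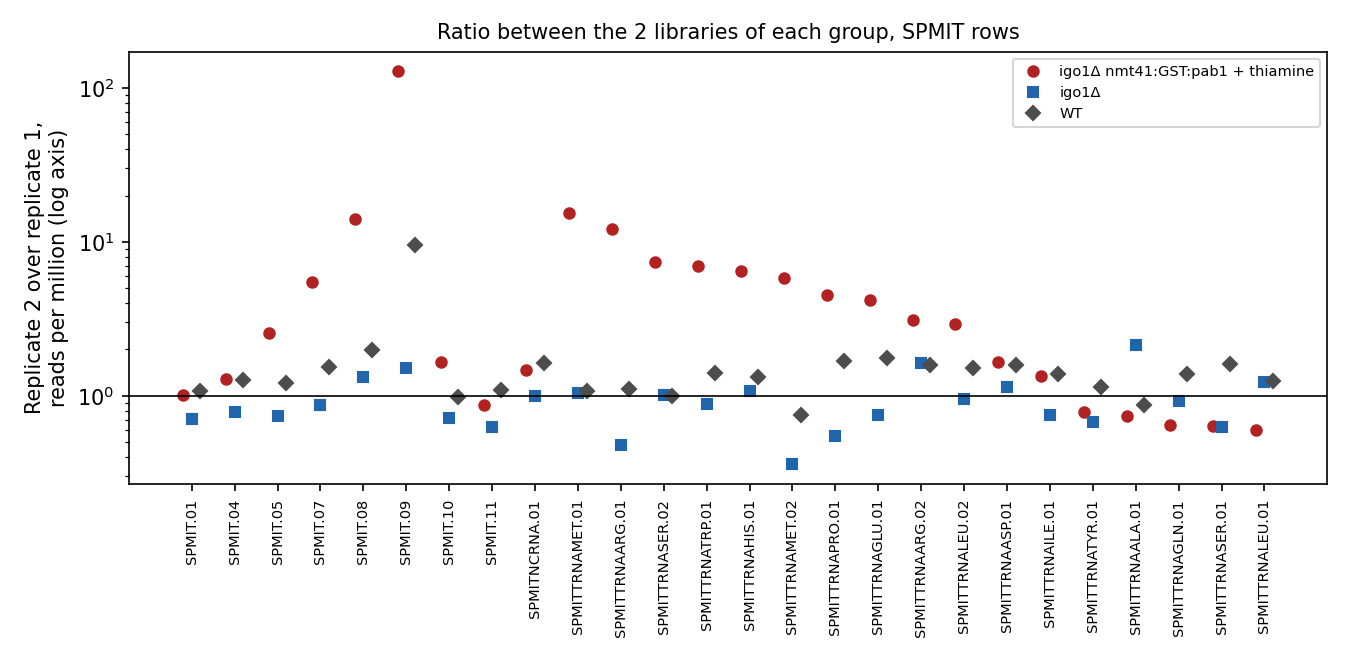
Ratio of the second to the first library of each group in RPM (log axis), with counts below 3 set to 3, for the 8 coding rows, SPMITNCRNA.01 and the 17 tRNA rows that averaged at least 10 reads. The *pab1*-repressed pair reaches 128-fold at SPMIT.09 and 15.3-fold at SPMITTRNAMET.01, while SPMIT.01 lies at 1.01-fold in the same pair.

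The fold changes of the *pab1*-repressed group at these rows therefore rested on one library. Without the first *pab1*-repressed library 15 mitochondrial rows rose and 5 fell against WT, and 16 rose and 4 fell against *igo1*Δ (limma). Over all rows the same fits called 33.8% higher and 36.2% lower against WT, and 30.7% higher and 33.4% lower against *igo1*Δ. Without the second, 0 mitochondrial rows rose and 16 fell against WT, and 2 rose and 5 fell against *igo1*Δ. All rows then gave 29.9% higher and 30.9% lower against WT, and 25.3% higher and 30.4% lower against *igo1*Δ. With 1 library left in the group, the spread in these fits is that of the *igo1*Δ or WT pair alone, so calls were many over the whole table. Against WT the sign turned for coding rows, among them SPMIT.05, SPMIT.08 and SPMIT.10. Their log2 fold changes were 0.96, 2.77 and 0.39 without the first library and -0.36, -1.02 and -0.32 without the second. It also turned for tRNA rows. In the same order of fits, these included SPMITTRNAARG.01 (1.93 and -1.45), SPMITTRNAHIS.01 (1.01 and -1.58) and SPMITTRNALEU.02 (0.93 and -0.60). SPMITTRNAMET.01 (2.69 and -1.15), SPMITTRNASER.02 (1.88 and -0.97) and SPMITTRNATRP.01 (0.91 and -1.75) turned as well.

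Nuclear genes of mitochondrial proteins were read beside these rows, by lists matched to 144 genes in the tables. In *igo1*Δ against WT, 3 of 34 nuclear genes of complexes II to V rose and 17 fell, with a median log2 fold change of -0.18, as against 29.6% higher and 30.1% lower over all rows. The lower calls included 8 of the 13 ATP synthase genes. *atp16*, which encodes the delta subunit of the F1 part, had 1421 and 1539 reads in *igo1*Δ, against 2784 and 3164 in WT, with a log2 fold change of -0.90 (SE 0.08, adjusted p = 3.1e-05, edgeR). *atp15*, the epsilon subunit gene, had a log2 fold change of -0.73 (SE 0.11).

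In complex III, the subunit genes *qcr10* and *qcr9* fell by 0.78 and 0.36 on the log2 scale, while *cyc1*, the gene of cytochrome c, rose by 0.52. In complex IV, *cox13* and *cox9* fell by 0.66 and 0.41, and *cox4* rose by 0.24. In complex II, *sdh2*, the iron-sulphur subunit gene, rose by 0.32 and *sdh3*, the membrane anchor gene, fell by 0.32. Fission yeast has no complex I, and of its single-subunit NADH dehydrogenases *nde1*, the external enzyme, rose by 0.84 and *ndi1*, the internal enzyme, fell by 0.25. Called subunit genes of complexes II and IV thus moved in both directions. In the complex III list 1 gene rose and 5 fell. The gene that rose was *cyc1*, and cytochrome c is not a subunit of the complex. The counts for complexes II to V include *cyc1*. In complex V 0 rose with edgeR and 1 with DESeq2. Every nuclear gene named as rising or falling in *igo1*Δ against WT was called at an adjusted p under 0.05 (edgeR). The counts for complexes II to V were 0 higher and 2 lower in one fit over all 6 libraries, beside 8.34% and 5.90% of all rows, and 5 and 13 with DESeq2, beside 27.5% and 23.9%. Without the first *igo1*Δ library they were 10 and 16, beside 33.4% and 32.6%, and 2 complex V genes were then called higher.

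Genes needed to express the mitochondrial genome were also called in both directions. Of 53 mitochondrial ribosomal protein genes 10 rose and 12 fell, beside 29.6% higher and 30.1% lower over all rows, with *mrpl4* and *mrps16* at 0.59 and 0.54 and *mrpl44* and *mrp49* at -0.91 and -0.85 on the log2 scale. With upper-quartile scaling 5 of them rose and 16 fell, beside 24.7% and 38.4% of all rows. Of 18 RNA processing genes 4 rose and 8 fell. In one fit over all 6 libraries, which called 8.34% of all rows higher and 5.90% lower, 0 ribosomal protein genes rose and 1 fell, and 1 RNA processing gene rose and 0 fell. *ppr8*, a pentatricopeptide repeat gene, rose most, with 4948 and 4018 reads in *igo1*Δ, against 1768 and 1884 in WT (log2 fold change 1.39, SE 0.09), and *mtf2* rose by 0.42. *trz2*, the gene of mitochondrial tRNase Z, which cuts tRNA 3′ ends, fell with 139 and 166 reads in *igo1*Δ, against 291 and 314 in WT (log2 fold change -0.88, SE 0.15), and *cbp7* fell by 0.66.

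Among 5 genes of mitochondrial transcription and DNA upkeep, *mtf1*, a transcription factor gene, rose by 0.49 on the log2 scale. *mgm101*, which acts in mitochondrial DNA recombination, and *pog1*, the mitochondrial DNA polymerase gene, fell by 0.56 and 0.27. Among 6 translation factor genes, *tuf1* (elongation factor Tu) rose by 0.63, and *tsf1* (elongation factor Ts) and *mti3* (an initiation factor) fell by 0.37 and 0.69. Of 22 assembly genes 2 rose (*sco1*, for copper delivery, by 0.42 and *oxa101*, a membrane insertase, by 0.39) and 8 fell. Those that fell most were *cox18*, another insertase, by 0.80 and *atp11*, an F1 assembly factor, by 0.71. The counts of these lists stand beside 29.6% of all rows called higher and 30.1% lower. In the fit over all 6 libraries 0 assembly genes rose and 3 fell, beside 8.34% higher and 5.90% lower over all rows.

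In the *pab1*-repressed libraries against *igo1*Δ, 0 of the 34 genes of complexes II to V were called by limma. Over all rows limma called 2.91% higher and 6.12% lower. The median log2 fold change of the 34 genes was -0.50, beside 0.89 for the mitochondrial coding rows in the same fit. Complexes II, III, IV and V each had a median below 0 (-0.55, -0.25, -0.49 and -0.49), so the medians of the nuclear respiratory genes and of the mitochondrial coding rows lay on opposite sides, without a limma call in either. DESeq2 called 9 of the 34 lower and 0 higher, and 4 of the 8 coding rows higher, beside 9.28% higher and 12.0% lower over all rows. Without the first *pab1*-repressed library 5 of the 34 rose and 18 fell, beside 30.7% and 33.4% of all rows, and without the second 1 rose and 21 fell, beside 25.3% and 30.4%. Called genes were *atp11* (log2 fold change 1.14, adjusted p = 0.0489) and *sco1* (-1.11, adjusted p = 0.0416) for assembly, *rsm27* (1.10, adjusted p = 0.0471) for the ribosome, *ppr8* (-1.62, adjusted p = 0.0343) for RNA processing and *tuf1* (-1.53, adjusted p = 0.0200) for translation, all by limma. Over all alternatives, single libraries left out included, the median of complexes II to V stayed below 0 (-0.58 to -0.31) and that of the mitochondrial coding rows above 0 (0.38 to 1.31).

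Against WT limma called 0 genes of any of these lists in the *pab1*-repressed libraries, beside 0.0331% of all rows. DESeq2 called 7 of the 34 genes of complexes II to V lower, beside 3.21% higher and 2.53% lower over all rows. The median log2 fold change of these 34 genes was -0.62, and that of the 13 complex V genes was -0.64. The median of the nuclear genes kept its sign with either library of the pair left out, whereas that of the mitochondrial coding rows, given above, did not. Without the first *pab1*-repressed library 4 of the 34 rose and 25 fell, with a median of -0.59, beside 33.8% higher and 36.2% lower over all rows. Without the second 0 rose and 33 fell, with a median of -0.58, beside 29.9% higher and 30.9% lower.

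**Figure D5:**
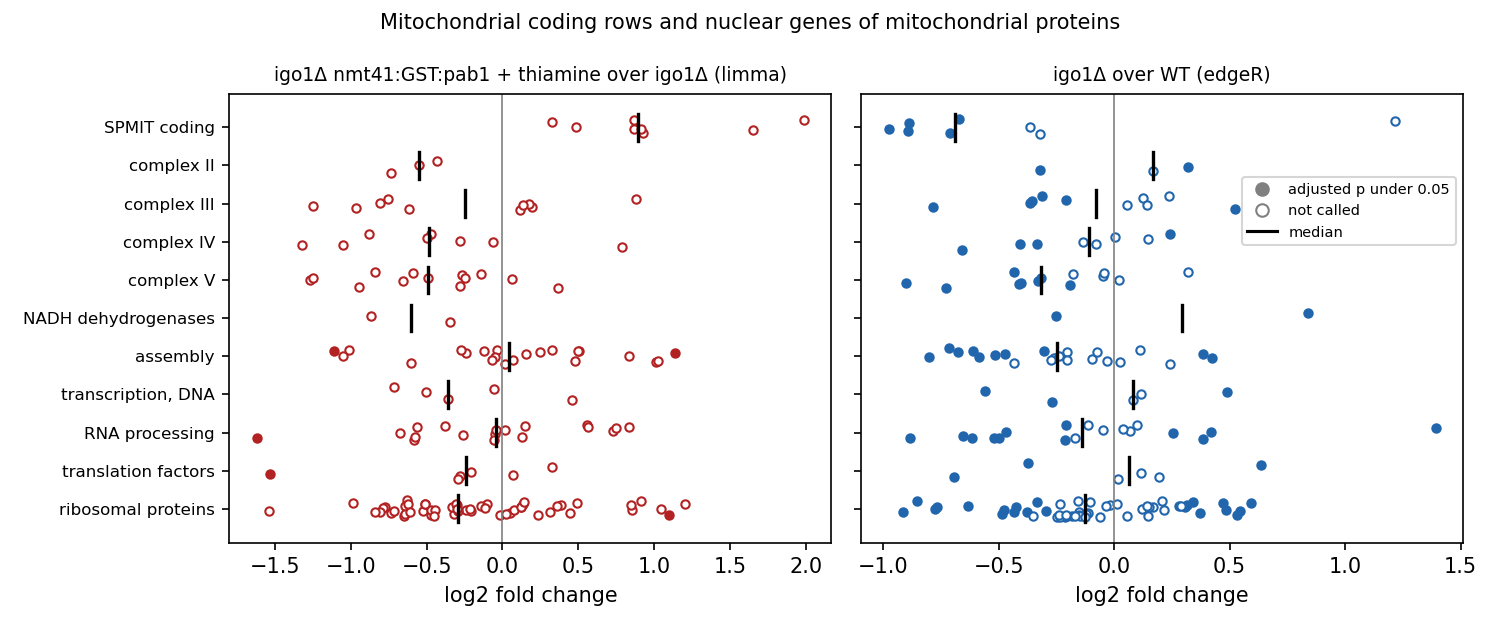
Log2 fold changes of the mitochondrial coding rows and of nuclear genes of mitochondrial proteins by list, for *pab1*-repressed over *igo1*Δ (left, limma) and *igo1*Δ over WT (right, edgeR), with filled points for calls at an adjusted p under 0.05 and lines at medians. The mitochondrial coding rows have medians of 0.89 and -0.69, and the complex V genes have medians of -0.49 and -0.32.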

How the data were processed

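RNA was sequenced as stranded total RNA libraries. Per the labels the submitters' processing used FastQC 0.11.8, Trimmomatic 0.38, HISAT2 2.1.0, featureCounts (Subread 1.6.3), DESeq2 and the ASM294v2 build. The use of strand in counting, and the treatment of reads that match several places or overlapping rows, are not given in the sources used here. The authors deposited a normalized signal, the reads per gene over a DESeq2 size factor, in 2 tables scaled separately. Each column divided by its smallest positive value was whole in 100% of its rows (tolerance 0.01), and these numbers were used as reads. Both tables gave identical reads for the *pab1*-repressed libraries.

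*igo1*Δ and WT are in separate tables, so the test between them used these reads (edgeR 4.0.16, TMM, quasi-likelihood). The SE is the log2 fold change divided by the square root of F. The other comparisons used limma 3.58.1 with a trend on log2(normalized count + 1) within a table, which understates changes of low rows. Fits took rows with a mean of at least 10, unless another filter is named, and adjusted p-values over all of them, with a threshold of 0.05. The edgeR, limma and DESeq2 fits with default settings were run on simulated data with the same spread in all libraries. That does not cover the unequal spread of the pairs here, and the alternative settings were not simulated. Gene names and neighbours come from the ASM294v3 reference, whose locus tags matched 6852 rows. As the build differs, no coordinates or sequences are given.

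All coding rows, and tRNA rows with a mean of at least 10 reads over the 6 libraries, are named, as are, of each nuclear list, the 2 called genes that rose most and the 2 that fell most. The members and lists were chosen with earlier results of these data known. Alternatives were other scalings (upper quartile, nuclear rows alone), no filter or a mean of at least 50, pseudocounts of 0.1 and 10, edgeR and DESeq2 1.42.0 on reads, a block for the replicate number, one fit over all 6 libraries, and leaving out each library. Software was R 4.3.3, Python 3.11.15, pandas 2.3.3 and scipy 1.17.1.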

Additional observations from a re-analysis of the deposited data

How the results depend on the processing

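In *igo1*Δ against WT the count of mitochondrial rows called lower was 10. It was 0 with all 6 libraries in one edgeR fit and 6 with a mean of at least 50. Over all rows 30.1%, 5.90% and 31.0% were called lower in these fits. The count called higher was 0, and it was 1 with DESeq2, 1 with no filter and 2 with the replicate number as a block. Over all rows 29.6%, 27.5%, 27.0% and 29.7% were called higher, in the same order. In *pab1*-repressed against *igo1*Δ the count called higher was 1. It was 5 with DESeq2, 3 with all 6 libraries in one fit and 0 with no filter. Over all rows 2.91%, 9.28%, 12.9% and 2.49% were called higher, in the same order. Other counts of mitochondrial rows stayed within 1.5 times the count given. Among them were the 14 called lower in *igo1*Δ against WT with upper-quartile scaling, beside 38.4% of all rows. With upper-quartile scaling the median over all rows went to -0.14 in *igo1*Δ against WT and to 0.19 in *pab1*-repressed against *igo1*Δ.

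Same-numbered libraries had correlated deviations of 0.159 (*igo1*Δ and WT), 0.141 (*pab1*-repressed and WT) and 0.00795 (*pab1*-repressed and *igo1*Δ) over 6031 rows. With 2 numbers these do not pair the libraries. With the block 9 rows fell and 2 rose in *igo1*Δ against WT, beside 30.7% lower and 29.7% higher over all rows. In *pab1*-repressed against *igo1*Δ 1 rose, beside 2.81% of all rows. In *pab1*-repressed against WT 0 were called, beside 0.348% of all rows.

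With each library left out in turn, the count called higher in *igo1*Δ against WT ranged from 0 to 2, the count called lower from 3 to 11 and the coding median from -0.83 to -0.44. In *pab1*-repressed against *igo1*Δ the ranges were 0 to 16 higher, 0 to 5 lower and 0.38 to 1.31, and against WT 0 to 15 higher, 0 to 16 lower and -0.22 to 0.68, where the sign turned. The single library of a group was then assumed to vary like the other group. The coding share ranged from 2.33% to 2.89% in the *pab1*-repressed libraries, 0.945% to 1.34% in *igo1*Δ and 2.02% to 2.24% in WT. Log2 fold changes of single rows that changed sign are given as ranges.
In *igo1*Δ against WT they were -0.41 to 0.049 for SPMITTRNAGLN.01, -0.0069 to 0.47 for SPMITTRNALEU.01, -0.0021 to 0.18 for SPMITTRNASER.02, -0.38 to 0.087 for SPMITTRNATRP.01. In *pab1*-repressed against *igo1*Δ they were -0.23 to 3.54 for SPMIT.08, -2.56 to 4.30 for SPMIT.09, -0.025 to 0.67 for SPMIT.10, -0.24 to 0.41 for SPMITTRNAASP.01, -0.24 to 1.28 for SPMITTRNALEU.02, -0.42 to 3.41 for SPMITTRNAMET.01, -1.08 to 1.76 for SPMITTRNASER.02, -1.64 to 1.00 for SPMITTRNATRP.01. In *pab1*-repressed against WT they were -0.36 to 0.96 for SPMIT.05, -0.12 to 2.30 for SPMIT.07, -1.02 to 2.77 for SPMIT.08, -0.65 to 6.23 for SPMIT.09, -0.32 to 0.39 for SPMIT.10, -0.064 to 0.16 for SPMIT.11, -1.45 to 1.93 for SPMITTRNAARG.01, -1.07 to 0.52 for SPMITTRNAARG.02, -1.26 to 0.72 for SPMITTRNAGLU.01, -1.58 to 1.01 for SPMITTRNAHIS.01, -0.60 to 0.93 for SPMITTRNALEU.02, -1.15 to 2.69 for SPMITTRNAMET.01, -1.75 to 0.25 for SPMITTRNAPRO.01, -0.97 to 1.88 for SPMITTRNASER.02, -1.75 to 0.91 for SPMITTRNATRP.01.

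Other settings turned the sign of uncalled tRNA rows. SPMITTRNASER.02 in *igo1*Δ against WT was 0.0755, and -0.039 with upper-quartile scaling. SPMITTRNATRP.01 in *pab1*-repressed against *igo1*Δ was -0.32, and 0.23 with DESeq2, 0.26 with all 6 libraries in one fit, 0.26 with edgeR and 0.26 with scaling on nuclear rows alone. In *pab1*-repressed against WT, SPMITTRNAHIS.01 was -0.29 and SPMITTRNATRP.01 -0.42, and under the same settings, in the same order, they were 0.23, 0.23, 0.22 and 0.21 for SPMITTRNAHIS.01 and 0.11, 0.10, 0.10 and 0.084 for SPMITTRNATRP.01. The cause of these changes was not tested. Of the 672 values of single rows under settings that left out no library, 628 kept their sign and their side of the threshold, 16 newly passed it, 15 no longer did and 13 turned. The composition over named respiratory genes alone was not run, since the IDs are not paired with names.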
